A study of Mus musculus with 2 samples.

Results

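Cytochrome P450 genes were followed through single-cell RNA sequencing of mouse back skin and preputial gland (PG). Cytochrome P450 enzymes are haem proteins of the endoplasmic reticulum and, for a few, of mitochondria. They insert an oxygen atom into fatty acids, sterols, retinoids, vitamin D and foreign compounds, and they depend on partner proteins that deliver electrons. In skin they are known for epoxides and hydroxides of fatty acids, for lipids of the epidermal barrier and for breakdown of retinoic acid. Genes were taken by symbol, Cyp followed by a digit, leaving out Cyp51 and pseudogenes ending in -ps. The files list 32285 genes, and 100 of them met the symbol rule. The members were chosen by that symbol and by their summed counts, with no use of cell class or tissue. Of the 100, 34 had at least 10 unique molecular identifiers (UMIs, the counted molecules) in the kept barcodes of both libraries together and are described here. Another 16 had 1 to 9 UMIs and 50 had none. Cyp4f15 lay just inside the limit with 11 UMIs, and Cyp2w1 lay just outside with 9. Over all genes, 51.2% reached 10 UMIs, and 34% of the P450 symbols did.

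Male wild-type C57BL/6 mice aged 52 weeks gave both tissues, without any treatment or altered allele. Skin biopsies of 3 mice were pooled into 1 library, and PGs of 3 mice into another, so neither tissue has a replicate and no test between tissues was possible. The PG is a large sebaceous-like gland of male rodents that opens at the prepuce, and its lipid-filled sebocytes have served as a stand-in for those of skin. A level is given as the UMIs of a gene per 1000000 UMIs of a cell class (CPM), with an exact 95% Poisson interval that covers counting error only. Ratios between classes carry exact binomial intervals of the same kind.

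After filtering, 8899 barcodes of skin (27407186 UMIs, median 2386) and 4699 of PG (15270076 UMIs, median 2729) remained, and no kept barcode occurred in both. Cells were placed in classes by fixed marker genes. PG gave 860 sebocytes, 1841 basal and 571 upper follicle keratinocytes, 593 fibroblasts, 177 macrophages and dendritic cells and 51 endothelial cells. The upper follicle name is only a gate label in PG. Cst6, Krt17, Defb6, Krt79 and Krt6a were higher in that class than in the rest of PG. Krt75 had no UMI there, and Sostdc1 was at 19.9 against 45.6 CPM in the rest. Skin gave 4278 basal, 1035 suprabasal and 513 upper follicle keratinocytes, 714 cells of hair matrix and inner root sheath, 966 fibroblasts, 201 macrophages and dendritic cells and 85 endothelial cells, but only 41 sebocytes. The sebocyte label held in both tissues for Scd1, at 3171 CPM in PG and 4261 CPM in skin, and for Soat1, Cidea and Mgst1. Among the other sebocyte markers, Awat1 had no UMI in PG sebocytes and Far2 was at 0.220 CPM there, against 48.9 and 239 CPM in skin sebocytes, and Elovl3 was at 5.07 against 179 CPM. Dgat2l6 and Far2 went against the label in PG, at 0.441 and 0.220 CPM in sebocytes against 8.20 and 0.559 CPM in the rest. Awat2, Elovl3, Scd3, Pparg and Mc5r were higher in PG sebocytes than in the rest of PG. The barcode lists of the libraries differ in length, 6794880 for skin and 737280 for PG, although the same kit is named for both. Tissue and library cannot be told apart, and the part of the library chemistry in the ratios was not tested.

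The members hold 8 role groups. Family 2, whose enzymes oxidise foreign compounds or make epoxides of polyunsaturated fatty acids, has 11 members, and family 4, fatty acid hydroxylases, also has 11. Sterol, bile acid and steroid enzymes have 5 members, family 1 and the vitamin D enzymes have 2 each, and family 3, the retinoic acid enzyme Cyp26b1 and the orphan Cyp20a1 stand alone. In GRCm38 the members lie on 13 chromosomes, and 16 of the 34 fall into 4 stretches in which neighbours are less than 1000000 bases apart. These are chr7:25802475-27133660 (Cyp2s1, Cyp2b10, Cyp2b19 and Cyp2f2), chr4:96099318-96591578 (Cyp2j12, Cyp2j6 and Cyp2j9), chr4:115106323-115647723 (Cyp4x1, Cyp4a10 and Cyp4b1) and chr17:32452723-32947402 (Cyp4f39, Cyp4f17, Cyp4f16, Cyp4f37, Cyp4f15 and Cyp4f13). Levels of neighbours are given with their role groups.

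The promoters of Cyp2f2, Cyp2b19 and Cyp2j12, the members of at least 100 UMIs with their highest level in PG sebocytes, and that of Cyp1a1, the textbook target of the aryl hydrocarbon receptor, are printed so that the members can be set beside the letters upstream of them. Each is the RefSeq sequence of GRCm38.p6 upstream of the RefSeq start, read on the strand of the gene. Capitals mark GCGTG, the core of the aryl hydrocarbon receptor element. They also mark AGGTCA, a nuclear receptor motif. In the Cyp1a1 line they mark TATAAA, the TATA box, as well. All were searched on both strands, and none overlaps another.
Cyp2f2, chr7:27119705-27119908, plus strand: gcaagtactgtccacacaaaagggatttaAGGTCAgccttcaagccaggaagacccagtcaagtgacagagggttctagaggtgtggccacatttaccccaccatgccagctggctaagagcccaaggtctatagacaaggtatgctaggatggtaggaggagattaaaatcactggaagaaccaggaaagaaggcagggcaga
Cyp2j12, chr4:96141153-96141402, minus strand: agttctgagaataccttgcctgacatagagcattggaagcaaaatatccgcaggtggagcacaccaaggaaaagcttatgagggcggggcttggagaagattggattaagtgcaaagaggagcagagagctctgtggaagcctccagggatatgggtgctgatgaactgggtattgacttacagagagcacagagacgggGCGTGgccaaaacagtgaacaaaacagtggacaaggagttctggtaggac
Cyp2b19, chr7:26756892-26757141, plus strand: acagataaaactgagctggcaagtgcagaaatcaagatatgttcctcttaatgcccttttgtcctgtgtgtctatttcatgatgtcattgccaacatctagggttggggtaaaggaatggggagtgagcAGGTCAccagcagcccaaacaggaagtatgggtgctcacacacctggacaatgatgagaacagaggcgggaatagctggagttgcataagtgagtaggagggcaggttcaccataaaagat
Cyp1a1, chr9:57697363-57697612, plus strand: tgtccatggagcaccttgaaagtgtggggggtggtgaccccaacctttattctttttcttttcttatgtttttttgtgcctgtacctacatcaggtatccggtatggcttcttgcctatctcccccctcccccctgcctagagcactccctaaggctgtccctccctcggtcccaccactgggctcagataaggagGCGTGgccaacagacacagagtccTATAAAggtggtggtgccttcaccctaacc
The Cyp2f2 stretch ends 46 bases before the RefSeq start, since those bases are exonic in GENCODE. The Cyp1a1 stretch lies inside the longer GENCODE gene, outside its exons. Promoters of 26 of the 34 members were listed. In the 250 bases upstream, GCGTG occurred in 10 of them and in 28.2% of all 32851 promoters. For AGGTCA these were 2 members, Cyp2f2 and Cyp2b19, against 14.0%. For TATAAA they were 3 members against 12.4%. These are letter matches in a short window and say nothing of binding.

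These genes took a larger share of the UMIs in PG than in skin, and most of it was Cyp2f2. The members summed to 12704 UMIs in PG (832 CPM of all kept barcodes) and to 4563 UMIs in skin (166 CPM). Cyp2f2 alone made up 75.5% of the PG sum, and the other members together came to 204 CPM in PG. By class, the summed level was 1354 CPM in PG sebocytes, of which 209 CPM remained without Cyp2f2, against 168 CPM in skin sebocytes. PG endothelial cells held 815 CPM, the 23 contractile cells of PG 739.9 CPM, PG basal keratinocytes 706 CPM and PG fibroblasts 579.9 CPM. In skin, fibroblasts led with 328 CPM, followed by endothelial cells with 275 CPM and suprabasal keratinocytes with 259 CPM, and hair matrix and inner root sheath were lowest among epithelial classes with 50.2 CPM. UMIs were found in both tissues for 30 members. Cyp2c69, Cyp4a10 and Cyp4f15 had none in skin and Cyp4f37 had none in PG.

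**Figure D1:**
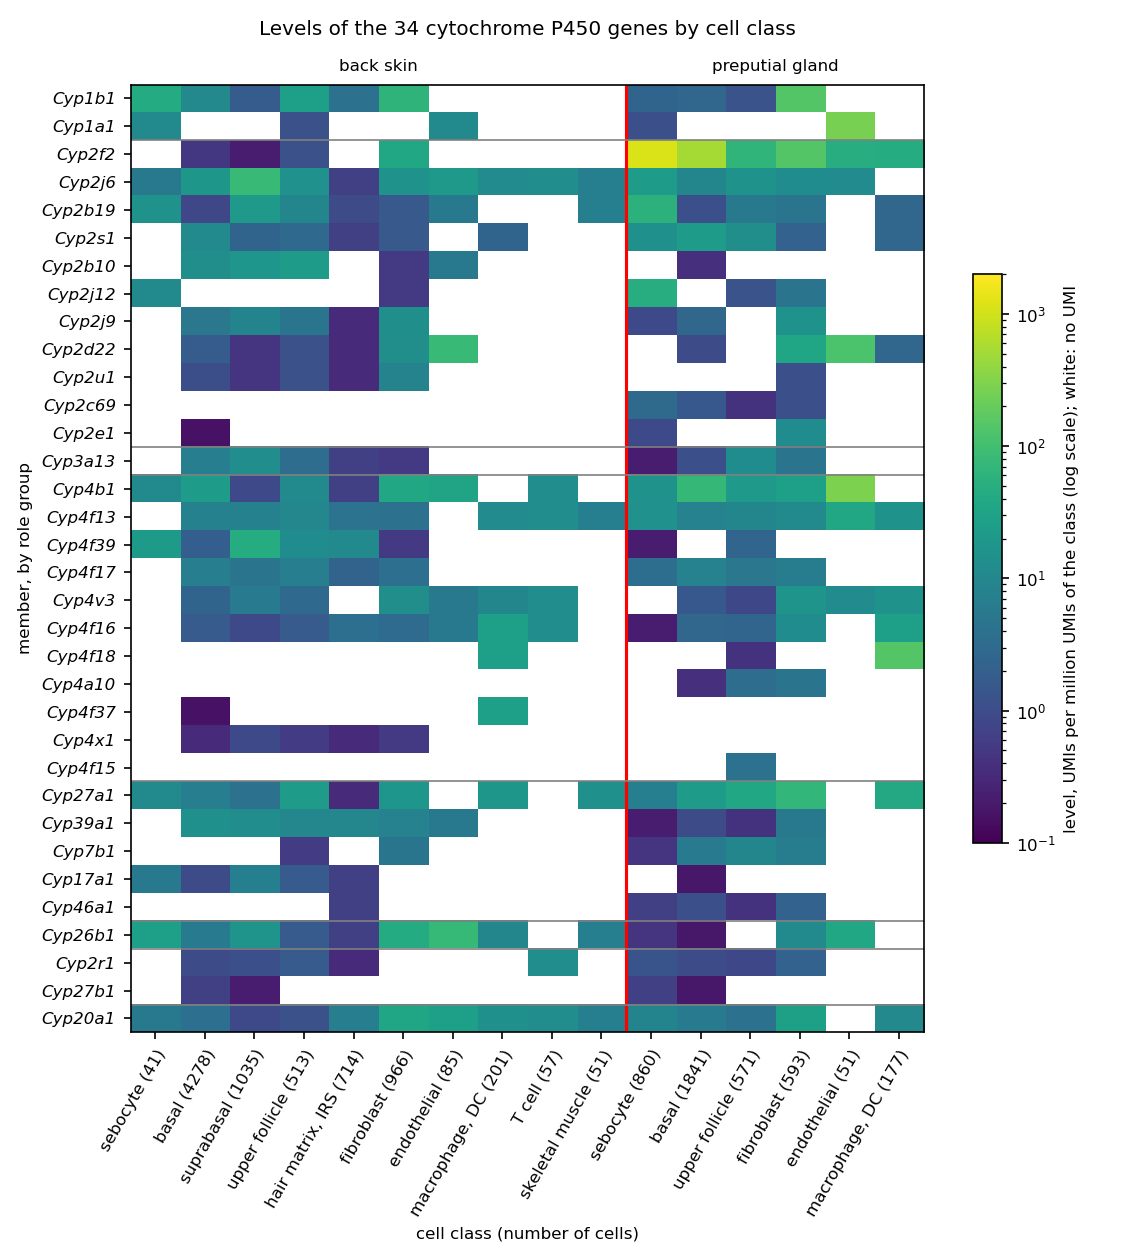
Level of each of the 34 members (rows, by role group) in each cell class of at least 50 cells and in the 41 skin sebocytes (columns, with the number of cells), coloured on a log scale in CPM. White squares had no UMI. Cyp2f2 in PG sebocytes (1145 CPM) and PG basal keratinocytes (529.6 CPM) are the brightest squares.

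Of the 20 members with at least 100 UMIs, 10 had their highest level in an epithelial class. Among classes of at least 50 cells, the highest levels were set beside those of the 12174 genes with at least 100 UMIs. PG fibroblasts led for 4 members (Cyp27a1, Cyp1b1, Cyp2j9 and Cyp4v3) and for 5.78% of genes, PG sebocytes for 3 (Cyp2f2, Cyp2b19 and Cyp2j12) and 8.3%, PG endothelial cells for 3 (Cyp4b1, Cyp4f13 and Cyp2d22) and 14.7%, and skin suprabasal keratinocytes for 3 (Cyp2j6, Cyp4f39 and Cyp3a13) and 5.45%. PG basal keratinocytes led for 2, Cyp2s1 and Cyp4f17, and for 4.47% of genes. Classes with 1 member were skin basal keratinocytes (Cyp39a1, 2.26% of genes), skin upper follicle keratinocytes (Cyp2b10, 1.79%), skin fibroblasts (Cyp20a1, 5.42%), skin endothelial cells (Cyp26b1, 6.76%) and PG macrophages and dendritic cells (Cyp4f16, 4.11%). No member led in skin hair matrix and inner root sheath (11.8% of genes), T cells (15.5%), skeletal muscle (6.84%), skin macrophages and dendritic cells (3.84%) or PG upper follicle keratinocytes (2.96%). For 12 of the 20 the interval of the highest class overlapped that of the next, a count that was not made over all genes. The lead of Cyp4f13 rested on 3 UMIs, and PG endothelial cells with at least 1000 genes and 2000 UMIs had none.

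Cyp2f2 (ENSMUSG00000052974, chr7:27119909-27133660, plus strand) encodes the enzyme best known for oxidising naphthalene and other small aromatic compounds in club cells of the mouse airway. It had 9591 UMIs in PG and 92 in skin. In PG the level was 1145 CPM in sebocytes (interval 1114 to 1176), 529.6 in basal keratinocytes, 143 in fibroblasts, 65.9 in upper follicle keratinocytes, 47.9 in endothelial cells and 45.3 in macrophages and dendritic cells. The intervals of sebocytes, basal keratinocytes, fibroblasts and upper follicle keratinocytes did not overlap, while upper follicle keratinocytes, endothelial cells and macrophages could not be ordered beyond counting error. The transcript was widespread in sebocytes rather than held by a few. At least 1 UMI was present in 746 of 860 PG sebocytes (86.7%), with a median of 4 and at most 45 UMIs per cell, and the top 10% of cells held 31.6% of the UMIs. In PG fibroblasts 68 of 593 cells (11.5%) had a UMI, and the top 10% of cells held 93.0%. None of the 23 contractile cells and none of the 14 T cells of PG had a UMI, where 3 such cells would be 13.0% and 21.4%. At this depth that does not limit the share that express the gene. After thinning every cell to 1000 UMIs, 57.1% of sebocytes (53.7 to 60.4%), 33.9% of basal keratinocytes, 8.26% of fibroblasts, 4.03% of upper follicle keratinocytes and 2.26% of macrophages and dendritic cells had a UMI.

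Free RNA of the PG suspension, read from barcodes with at most 100 UMIs, held Cyp2f2 at 309.5 CPM. Foreign markers put the share of free RNA in a class at 3.46% in PG sebocytes, 10.5% in fibroblasts, 10.6% in upper follicle keratinocytes and 14.1% in endothelial cells. Free RNA in those amounts would by itself give 10.7 CPM in sebocytes, 19.2 CPM in basal keratinocytes, 32.6 CPM in fibroblasts, 32.7 CPM in upper follicle keratinocytes and 43.7 CPM in endothelial cells. The sebocyte, basal, upper follicle and fibroblast intervals lay above such values, and the endothelial interval (13.1 to 123 CPM) contained its value. PG cells without a class held Cyp2f2 at 911 CPM.

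Skin sebocytes had no Cyp2f2 UMI among 184000. With the skin count set to 3 UMIs (16.3 CPM), the level in PG sebocytes was 70.2-fold higher. The lower bound of the ratio was log2 5.83. Between basal keratinocytes the counts were 2788 UMIs in PG and 6 in skin, a log2 ratio of 10.07 (8.95 to 11.52). The PG class held fewer basal and more sebocyte marker UMIs than the skin class. Fibroblasts were the exception in skin. They held 68 of the 92 skin UMIs, at 36.0 CPM (28.0 to 45.7), in 51 of 966 cells, while free RNA alone would give 0.245 CPM there. The PG level in fibroblasts was 3.98-fold that of skin fibroblasts (log2 1.99, 1.56 to 2.44), and log2 1.63 once free RNA was subtracted. GENCODE places an exon of Gm15883 on the opposite strand of Cyp2f2, and whether counting used strand is not given in the sources used here.

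**Figure D2:**
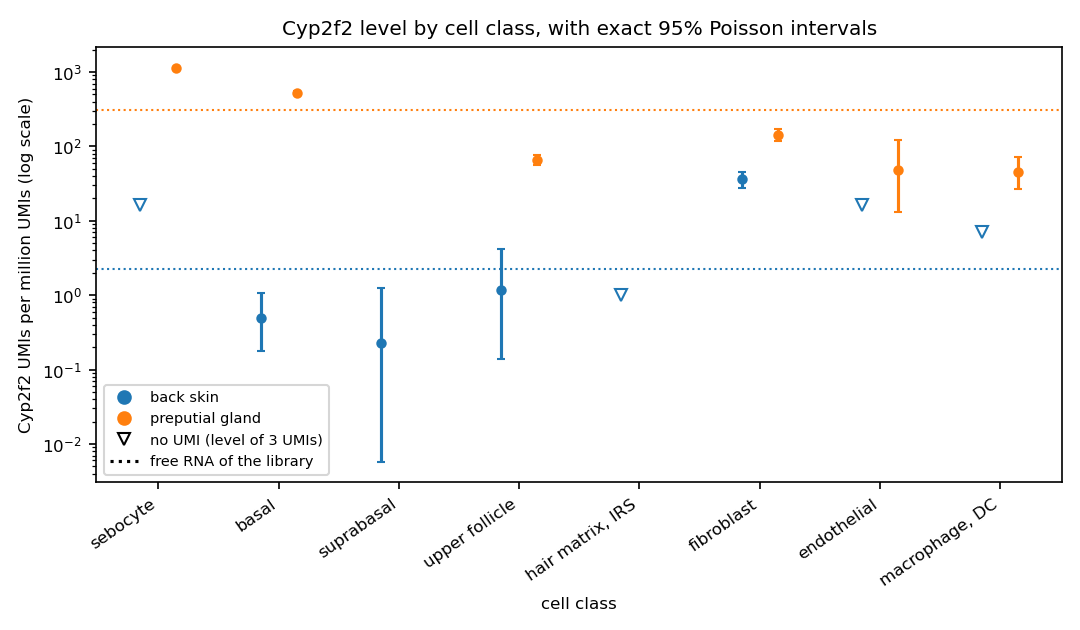
Cyp2f2 level (CPM, log axis) by cell class in back skin (blue) and PG (orange), with exact 95% Poisson intervals. Open triangles mark classes with no UMI at the level of 3 UMIs and dotted lines the free RNA of each library. PG sebocytes (1145 CPM) and basal keratinocytes (529.6 CPM) lie above the PG free RNA line at 309.5 CPM, and in skin only fibroblasts (36.0 CPM) lie clearly above the skin line at 2.28 CPM.

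Cyp2b19 and Cyp2j12 also had their highest level in PG sebocytes. Cyp2b19 (ENSMUSG00000066704, chr7:26757142-26772630) encodes an arachidonic acid epoxygenase of differentiating epidermis. PG sebocytes held 268 of its 307 PG UMIs at 59.1 CPM (52.2 to 66.6), and no other PG class of at least 50 cells exceeded 5.49 CPM. The sebocyte level of Cyp2b19 was 102 CPM with clusters in place of the gate and 36.0 CPM after thinning. In skin it was a gene of suprabasal keratinocytes, with 90 of 133 UMIs at 20.2 CPM (16.3 to 24.8), followed by upper follicle keratinocytes at 9.28 CPM and basal keratinocytes at 0.819 CPM. Skin sebocytes had 3 UMIs (16.3 CPM, 3.36 to 47.6). Cyp2j12 (ENSMUSG00000081225, chr4:96099318-96141152) was the most restricted of the members with at least 100 UMIs in PG, with 221 of 234 UMIs in sebocytes at 48.7 CPM (42.5 to 55.6) and at most 4.44 CPM elsewhere, where free RNA alone would give 3.07 CPM. With clusters the sebocyte level of Cyp2j12 was 78.0 CPM. Skin gave 3 UMIs of it in all, 2 of them in 1 sebocyte.

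The other Cyp2j genes followed other classes. Cyp2j6 (ENSMUSG00000052914, chr4:96516138-96553661), also of the family that epoxidises arachidonic acid, had 369 of 700 skin UMIs in suprabasal keratinocytes at 82.9 CPM (74.6 to 91.8), against 18.9 CPM in basal and 15.1 CPM in upper follicle keratinocytes. In PG it was highest in sebocytes at 23.6 CPM (19.3 to 28.5) and stood at 15.6 CPM in upper follicle and 9.5 CPM in basal keratinocytes. Cyp2j9 was at 13.8 CPM in skin fibroblasts and 15.6 CPM in PG fibroblasts, whose intervals overlap, and at 8.76 CPM in skin suprabasal keratinocytes.

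Cyp2b10, the liver target of the drug sensor CAR, had 299 UMIs in skin and 2 in PG. Its skin levels were 22.6 CPM in upper follicle, 18.4 CPM in suprabasal and 13.4 CPM in basal keratinocytes, with no UMI in sebocytes or hair matrix and inner root sheath. Cyp2s1, a P450 of epithelia outside the liver, was higher in PG, with 22.8 CPM in PG basal keratinocytes (18.9 to 27.3) against 11.1 CPM in skin (9.27 to 13.1), and was at 14.3 CPM in PG sebocytes. Cyp2d22, of the drug-metabolising 2D group, was highest in endothelial cells of both tissues, at 120 CPM in PG and 81.0 CPM in skin, and next in fibroblasts, at 35.6 and 13.2 CPM. The PG endothelial level of Cyp2d22 was 35.7 CPM with barcodes of at least 1000 genes and 2000 UMIs and 77.4 CPM with clusters in place of the gate. Part of the 3' end of 10 members is shared with other genes in runs of 50 bases, which can split or lose reads, up to 38.4% for Cyp2c69 and 15% for Cyp2d22, and levels of these are less certain.

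Cyp4b1 (ENSMUSG00000028713, chr4:115624725-115647723), a member of the fatty acid hydroxylases of family 4 that hydroxylates short fatty acids and activates some toxins of the lung, reached 288 CPM (184 to 428) in PG endothelial cells, from 24 UMIs in 20 of 51 cells. With barcodes of at least 1000 genes and 2000 UMIs that level was 143 CPM. The 23 contractile cells of PG gave 14 UMIs (414 CPM, 227 to 695). PG basal keratinocytes held most of the UMIs, 388 of 643, at 73.7 CPM (66.6 to 81.4), and skin basal keratinocytes 277 of 410 at 22.7 CPM (20.1 to 25.5). Skin suprabasal cells were at 0.898 CPM (0.245 to 2.3).

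Cyp4f39 (ENSMUSG00000061126, chr17:32452723-32493320), which hydroxylates the very long fatty acids of barrier acylceramides, had the opposite order in skin. Suprabasal keratinocytes held 206 of 296 UMIs at 46.3 CPM (40.2 to 53.0), upper follicle keratinocytes 12.2 CPM, hair matrix and inner root sheath 11.6 CPM and basal keratinocytes 1.97 CPM. PG, where the gate placed a single cell in the suprabasal class, gave 7 UMIs of it in all, 6 of them in upper follicle keratinocytes. Cyp4f13 and Cyp4f17 were spread over many classes. Cyp4f13 stood between 4.24 and 11.9 CPM in the skin classes with at least 5 UMIs of it, and Cyp4f17 between 2.33 and 6.96 CPM. In PG sebocytes they were at 15 and 3.53 CPM.

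Cyp4f18, which inactivates the chemoattractant leukotriene B4 in myeloid cells, had 54 of 59 PG UMIs in macrophages and dendritic cells (144 CPM, 108 to 188), in 37 of 177 cells, and 11 of 13 skin UMIs in the same class (26.3 CPM, 13.1 to 47.0). Cyp4f37 had 11 of its 15 skin UMIs in that class, also at 26.3 CPM, and none in PG, where 3 UMIs would be 7.99 CPM. Cyp4f16 had its highest level in this class in both tissues, at 26.6 CPM in PG and 26.3 CPM in skin, but only 10 of 47 PG and 11 of 72 skin UMIs lay there. Basal keratinocytes held the most, 14 and 21, and in PG the interval overlapped that of fibroblasts. Cyp4v3 lay between 13.2 and 16.7 CPM in fibroblasts of both tissues. Cyp4a10, a target of PPAR alpha in liver, had 15 UMIs, all in PG and 8 of them in upper follicle keratinocytes, Cyp4f15 had 10 of 11 in the same class, and Cyp4x1 had 12 UMIs over both tissues.

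In PG the 2 members of family 1 were highest in different classes, Cyp1b1 in fibroblasts and Cyp1a1 in endothelial cells. Cyp1b1 (ENSMUSG00000024087, chr17:79701537-79715061), which oxidises oestradiol and polycyclic aromatic compounds, was highest in fibroblasts of both tissues, at 140.0 CPM in PG (117 to 167; 126 UMIs in 91 of 593 cells) and 63.0 CPM in skin (52.2 to 75.4; 119 UMIs in 96 of 966 cells). Skin sebocytes had 8 UMIs in 6 of 41 cells (43.5 CPM, 18.8 to 85.7), an interval that overlaps that of skin fibroblasts. Skin upper follicle keratinocytes stood at 27.3 CPM and skin basal keratinocytes at 10.4 CPM. PG epithelium had 1.27 to 2.66 CPM. Cyp1a1 (ENSMUSG00000032315, chr9:57687928-57703824) had 22 of 27 PG UMIs in endothelial cells, in 12 of 51 cells with at most 4 each (264 CPM, 165 to 399), and 2 UMIs in skin endothelial cells (10.8 CPM, 1.31 to 39). No other class of at least 50 cells in either tissue exceeded 1.16 CPM of it. In skin the endothelial interval overlapped that of upper follicle keratinocytes. The 41 skin sebocytes also had 2 UMIs, at 10.9 CPM, so skin endothelial cells did not stand out.

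Sterol enzymes differed by tissue in opposite directions. Cyp27a1 (ENSMUSG00000026170, chr1:74713574-74737892), the mitochondrial sterol hydroxylase of bile acid synthesis, was at 70.0 CPM in PG fibroblasts (53.8 to 89.6), 39.9 CPM in PG macrophages, 38.0 CPM in PG upper follicle and 23.2 CPM in PG basal keratinocytes, and at 7.05 CPM in PG sebocytes. The corresponding skin levels were 18.5 CPM in fibroblasts, 19.1 CPM in macrophages, 22.6 CPM in upper follicle and 6.96 CPM in basal keratinocytes. Cyp39a1, which hydroxylates a cholesterol metabolite in the same pathway, had 338 UMIs in skin and 14 in PG. It was even across skin, from 7.94 CPM in fibroblasts to 14.7 CPM in basal keratinocytes over the 5 keratinocyte, hair matrix and fibroblast classes. Cyp7b1, the hydroxylase of oxysterols, had 73 UMIs in PG, at 9.30 CPM in upper follicle and 5.70 CPM in basal keratinocytes, and 13 in skin, 9 of them in fibroblasts. Cyp17a1, of androgen and glucocorticoid synthesis, had 32 of its 50 skin UMIs in suprabasal keratinocytes (7.19 CPM, 4.92 to 10.1) and 2 UMIs in PG. Cyp46a1, the cholesterol hydroxylase of brain, had 15 UMIs over both tissues.

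Cyp26b1 (ENSMUSG00000063415, chr6:84571414-84593908), which breaks down retinoic acid, was mainly a skin transcript, with 288 UMIs there and 26 in PG. Skin fibroblasts had 44.0 CPM (35 to 54.5), suprabasal keratinocytes 17.1 CPM and basal keratinocytes 6.23 CPM. Skin endothelial cells had 75.6 CPM, but its 14 UMIs came from 3 of 85 cells, 11 of them from 1 cell. PG fibroblasts were at 11.1 CPM. The vitamin D enzymes were near the limit of detection. Cyp2r1, which makes the circulating form, had 43 UMIs and Cyp27b1, which makes the active hormone, had 14, of which 8 were in skin basal keratinocytes. Cyp24a1, which degrades it, was not among the members. Cyp3a13, of the drug- and steroid-oxidising family 3, was at 13.0 CPM in skin suprabasal and 6.88 CPM in skin basal keratinocytes, and in PG had 29 of 41 UMIs in upper follicle keratinocytes at 12.3 CPM. Cyp20a1, an orphan, was highest in fibroblasts of both tissues, at 33.9 CPM in skin and 27.8 CPM in PG, whose intervals overlap. Of the remaining scarce members, Cyp2u1 had 16 of 41 skin UMIs in fibroblasts, Cyp2e1, the ethanol oxidase, had 11 of 21 PG UMIs in fibroblasts, and Cyp2c69 had 14 of 29 in PG sebocytes. 

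To compare the tissues, members with at least 10 UMIs in the 2 groups together were called past the fold where the level differed at least 2-fold and the interval of the ratio did not hold equality. The same rule was run over all genes. In sebocytes, Cyp2f2, Cyp2b19 and Cyp2j12 were higher in PG and Cyp1b1 was lower, which is 3 and 1 of 12 members, where 5.15% and 10.4% of 10577 genes were past the fold. The 3 higher members reached the limit of 10 UMIs through their PG counts alone, 5193, 268 and 221 UMIs against 0, 3 and 2 in skin. For Cyp2f2, with no skin UMI, that limit fixed the direction. The ratio was 3.62-fold for Cyp2b19 (log2 1.86, 0.29 to 4.14) and 4.48-fold for Cyp2j12 (log2 2.16, 0.29 to 5.22), both against 2 or 3 skin UMIs. For Cyp1b1 it was log2 -4.16 (-5.61 to -2.65) on 11 and 8 UMIs. The median log2 ratio was 0.23 over the 12 members and -0.35 over all genes, with a group at 0 set to 3 UMIs. Through that setting a gene seen only in PG can get a negative ratio, such as Cyp2c69 at log2 -2.40 from 14 UMIs. These medians therefore also carry the low depth of skin sebocytes. For Cyp2s1, Cyp4f13, Cyp4f17 and Cyp2c69, with no UMI in skin sebocytes, no difference was detectable at this depth. Cyp2b19 and Cyp2j12 left the call when barcodes over 5% mitochondrial UMIs were removed or cells were thinned, Cyp2j12 also when each cell was weighted alike. Cyp1b1 left it when cells were thinned or had also to lie in the sebocyte cluster.

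In fibroblasts the members leaned to PG. Cyp2f2, Cyp27a1, Cyp1b1, Cyp2d22, Cyp4f16 and Cyp2e1 were past the fold toward PG and Cyp26b1 and Cyp2u1 toward skin, 6 and 2 of 17 members, against 9.27% and 6.61% of 10911 genes. Cyp27a1 was 3.78-fold higher in PG (log2 1.92, 1.30 to 2.56), Cyp1b1 2.22-fold higher (log2 1.15, 0.78 to 1.52) and Cyp26b1 3.96-fold lower (log2 -1.98, -3.10 to -1.03). Cyp2e1, with 11 UMIs in PG fibroblasts and none in skin fibroblasts, entered through its PG count alone. Its direction was thus fixed by the limit on UMIs, and it does not count toward the lean to PG. Cyp4f16, with 11 UMIs in PG and 6 in skin, reached the limit through its PG count alone and does not count toward the lean either. Cyp2u1, with 1 UMI in PG and 16 in skin, reached the limit on UMIs through its skin count alone. The members' median log2 ratio was 0.48, and that of all genes 0.00. Only 62 PG fibroblasts had 1000 genes and 2000 UMIs. At that limit 3 members were higher, Cyp2f2, Cyp27a1 and Cyp1b1, and 1 was lower, Cyp20a1, while Cyp26b1 moved to log2 0.44.

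Basal, suprabasal and upper follicle cells together gave 7 members higher in PG and 11 lower, of 26, where 16.6% and 18.3% of 14492 genes were past the fold. Cyp4a10 and Cyp4f15, with 10 UMIs each in PG and none in skin, entered through their PG counts alone. Cyp2u1, with 17 UMIs in skin and none in PG, entered through its skin count alone. The direction of these was thus fixed by the limit of 10 UMIs. Cyp2f2 and Cyp7b1 reached that limit through their PG counts alone, with 9 and 1 UMIs in skin. Cyp39a1, Cyp26b1, Cyp4f39, Cyp2b10 and Cyp17a1 reached it through their skin counts alone, with 6, 1, 6, 2 and 1 UMIs in PG. The median log2 ratio was -0.96 over the members and -0.01 over all genes. Suprabasal cells were 1035 in skin and 1 in PG, so these ratios also carry the makeup of the class, and values within the basal and the upper follicle class are given beside them. In basal keratinocytes alone 5 were higher and 6 lower of 23, against 16.7% and 17.2% of 13760 genes. The marker content of this class differed between the tissues, and its part in the ratios was not tested. Higher were Cyp2f2, Cyp4b1 (log2 1.70, 1.47 to 1.93), Cyp27a1 (log2 1.73, 1.32 to 2.15), Cyp2s1 (log2 1.04, 0.68 to 1.41) and Cyp7b1. Cyp2f2, with 6 UMIs in skin, reached the limit through its PG count alone. Cyp7b1 had 30 UMIs in PG and none in skin, so it entered through its PG count alone. With the skin count set to 3 UMIs it was 23.2-fold higher, with a lower bound of log2 4.15.

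Lower in PG basal keratinocytes were Cyp2b10 (log2 -5.14, -8.19 to -3.26), Cyp26b1 (log2 -5.03, -10.36 to -2.51), Cyp39a1 (log2 -3.95, -5.59 to -2.70), Cyp3a13, Cyp1b1 and Cyp4f39. Cyp4f39 had 24 UMIs in skin and none in PG here, so it entered through its skin count alone. Cyp2b10, Cyp26b1, Cyp39a1 and Cyp3a13 also reached the limit of 10 UMIs through their skin counts alone. These were 163, 76, 179 and 84 UMIs, against 2, 1, 5 and 6 in PG. In upper follicle keratinocytes 5 of 16 members were higher in PG, Cyp2f2, Cyp2s1, Cyp3a13, Cyp7b1 and Cyp4f15, and 4 were lower, Cyp1b1, Cyp39a1, Cyp4f39 and Cyp2b10, against 12.2% and 18.4% of 10721 genes. Cyp4f15, with 10 UMIs in PG and none in skin, entered this comparison through its PG count alone, so its direction was fixed by the limit of 10 UMIs. Cyp2f2, Cyp2s1, Cyp3a13 and Cyp7b1 also reached that limit through their PG counts alone, and Cyp1b1, Cyp39a1 and Cyp4f39 through their skin counts alone. Cyp2f2, Cyp2s1 and Cyp7b1 were thus higher and Cyp1b1, Cyp39a1, Cyp4f39 and Cyp2b10 lower in both classes. The 2 PG UMIs of Cyp2b10 lay in basal cells, so in upper follicle cells it entered through its skin count alone. For Cyp2b10 there, and for Cyp7b1 and Cyp4f39 in basal cells, the limit of 10 UMIs fixed the direction. For these members, agreement between the classes is therefore no result. Cyp2j6, Cyp2b19, Cyp2j9, Cyp4v3, Cyp17a1 and Cyp2u1, lower in PG over the keratinocytes together, were past the fold in neither. Within a class, Cyp2b19 was at log2 0.48 in basal cells and Cyp2j6 at log2 0.052 in upper follicle cells.

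Endothelial and myeloid cells were few. In endothelial cells Cyp4b1 (log2 3.15, 1.82 to 4.73) and Cyp1a1 (log2 4.61, 2.58 to 7.74) were past the fold toward PG, 2 of 4 members, and none was lower, against 8.71% and 5.25% of 4134 genes. Cyp4b1 and Cyp1a1 reached the limit of 10 UMIs here through their PG counts alone, and Cyp1a1 had 22 UMIs in PG and 2 in skin. Cyp2d22 (log2 0.56, -0.75 to 1.82) and Cyp26b1 (log2 -1.07, -3.51 to 0.77) were not past it. In macrophages and dendritic cells Cyp4f18 (log2 2.45, 1.5 to 3.54) and Cyp2f2 were higher in PG and Cyp4f37 lower, 2 and 1 of 8 members, against 7.94% and 12.7% of 6475 genes. Cyp2f2 had no UMI in skin myeloid cells, and Cyp4f37, with 11 UMIs in skin, had none in PG. Each entered through 1 tissue alone, so the direction of both was fixed by the limit of 10 UMIs. The 17 Cyp2f2 UMIs of PG myeloid cells came from 6 of 177 cells, and free RNA alone would give 13.9 of the 45.3 CPM.

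Within PG sebocytes, 268 early cells still held basal genes such as Krt5 and Krt14 above 20 UMIs per 10000, and 592 differentiated cells held less. Of the 860 PG sebocytes, 362 also lay in the sebocyte cluster, 39 of them early. With 1 more marker asked, there were 420 sebocytes, 87 of them early. The early group thus depended strongly on the gate. Cyp2f2 hardly moved between them, at 1089.7 CPM in early and 1164 CPM in differentiated cells (log2 0.10, 0.00 to 0.19). Cyp2j12 was 2.98-fold higher in differentiated cells (58.7 against 19.7 CPM, log2 1.57, 0.95 to 2.26), and Cyp4b1 was 4.24-fold lower (8.90 against 37.8 CPM, log2 -2.08, -2.80 to -1.38). These were 1 higher and 1 lower of 12 members, against 1.24% and 7.9% of 10350 genes, with median log2 ratios of 0.16 and -0.13. Cyp2j12 left the call when 1 more marker was asked of each cell and when clusters replaced the gate.

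Differentiated sebocytes were split further by Awat2, a wax ester synthase of late sebocytes, a split chosen after the values had been seen. The 93 cells with an Awat2 UMI had less Cyp2f2 than the 499 without (596 against 1300.4 CPM, log2 -1.13, -1.28 to -0.98), more Cyp2b19 (118 against 47.8 CPM, log2 1.30, 0.88 to 1.72) and more Cyp2j12 (107 against 47.1 CPM, log2 1.19, 0.74 to 1.62). That is 2 higher and 1 lower of 11 members, against 2.75% and 4.19% of 9651 genes. In early cells Cyp2b19 stood at 52.3 CPM.

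**Figure D3:**
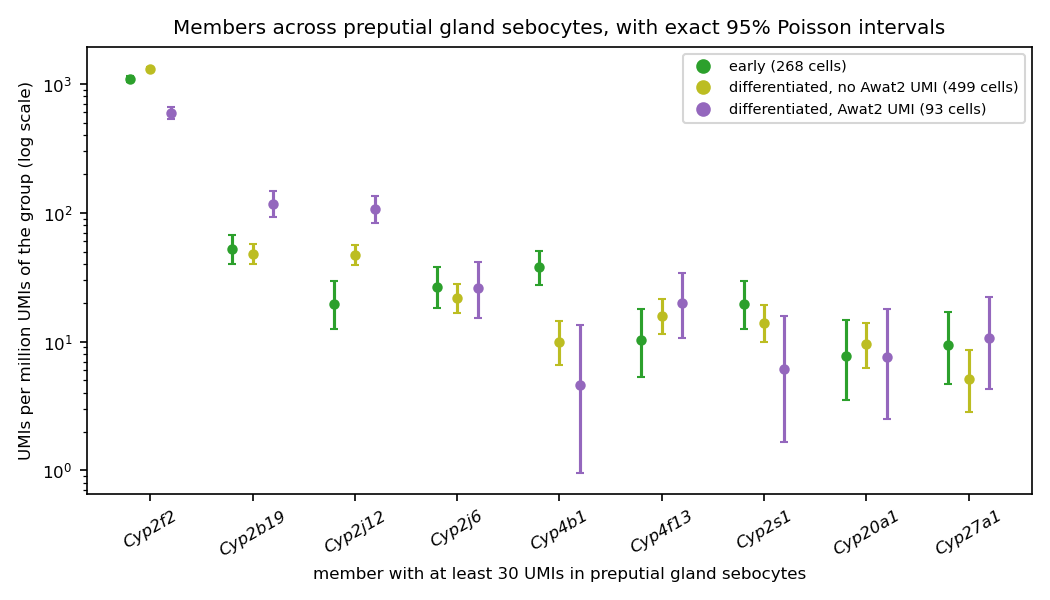
Level (CPM, log axis) of the 9 members with at least 30 UMIs in PG sebocytes, in 268 early cells (green), 499 differentiated cells without (olive) and 93 with (purple) an Awat2 UMI, with exact 95% Poisson intervals. Cyp2f2 is lowest in cells with an Awat2 UMI (596 CPM), Cyp2b19 (118 CPM) and Cyp2j12 (107 CPM) are highest there, and Cyp4b1 is highest in early cells (37.8 CPM).

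Genes for the partner proteins of P450 enzymes were taken as a list of 10, which includes the reductase Por, cytochrome b5 and its reductases, the mitochondrial adrenodoxin system and the haem genes Alas1 and Hmox2. In sebocytes none was past the fold toward PG and 1, Cyb5a, toward skin (219 against 457 CPM, log2 -1.06, -1.38 to -0.72), where all genes gave 5.15% and 10.4%. In fibroblasts none was past it in either direction (9.27% and 6.61% of all genes). In keratinocytes together, Pgrmc1, Alas1 and Hmox2 were higher in PG and Pgrmc2 was lower (16.6% and 18.3%), with log2 ratios from -1.61 to 1.19. In upper follicle keratinocytes alone Fdx1 was higher and Fdxr and Pgrmc2 were lower (12.2% and 18.4%), and in macrophages and dendritic cells Por, Cyb5a and Pgrmc1 were lower (12.7%).

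The epoxide hydrolases, a list of 3, open the epoxides that P450 enzymes make. Ephx1 and Ephx2 were higher in PG in sebocytes, fibroblasts and keratinocytes together, where 5.15%, 9.27% and 16.6% of all genes were. In sebocytes both reached the limit on UMIs through their PG counts alone. These were 162 UMIs for Ephx1 and 1721 for Ephx2, against 1 UMI each in skin. The sebocyte ratio of Ephx1 was log2 2.72 (0.22 to 8.03). In fibroblasts Ephx2, with 18 UMIs in PG and 9 in skin, also reached the limit through its PG count alone. Ephx2 stood at 379 CPM in PG sebocytes against 5.43 CPM in skin sebocytes, from 1 UMI there, and at 782 CPM in the PG cells with an Awat2 UMI. In upper follicle keratinocytes alone Ephx2 had a log2 ratio of 0.06. Ephx3 was lower in PG basal keratinocytes (log2 -2.96, -8.34 to -0.29, on 1 and 18 UMIs), and Ephx1 was lower in differentiated than in early PG sebocytes (25.2 against 66.1 CPM, log2 -1.39, -1.85 to -0.93).

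The list around the aryl hydrocarbon receptor, the sensor of aromatic compounds that drives Cyp1a1, differed by class. The receptor gene Ahr was lower in PG sebocytes (11.2 against 54.3 CPM, log2 -2.27, -3.27 to -1.13), basal keratinocytes (28.5 against 107 CPM), upper follicle keratinocytes (log2 -2.64) and macrophages and dendritic cells (log2 -1.68). Its target Tiparp was lower in PG sebocytes, basal and upper follicle keratinocytes (log2 -2.40, -3.74 and -3.08). Toward skin this was 2 of 4 measured genes in sebocytes, where 10.4% of all genes were past the fold, and 2 of 4 in basal keratinocytes, where 17.2% were. In endothelial cells, where Cyp1a1 was higher, Ahr was higher in PG (156 against 48.6 CPM, log2 1.68, 0.34 to 3.09), against 8.71% of all genes, while Tiparp had a log2 ratio of 0.15 (-1.11 to 1.31). Nqo1 was higher in PG basal keratinocytes (23.9 against 8.03 CPM, log2 1.58, 1.18 to 1.97), and none of the 4 measured genes of this list was past the fold in fibroblasts. Of the P450 genes without a Cyp symbol, Ptgis, which makes prostacyclin, reached 10 UMIs only in fibroblasts and Tbxas1, which makes thromboxane, only in macrophages and dendritic cells, and neither was past the fold there (log2 0.66 and 0.35).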

How the data were processed

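For each library the authors deposited a matrix of UMI counts per gene and barcode, written by Cell Ranger 4 per the file headers, mapped to mm10 per the labels and not normalized. Members and gene lists were chosen with earlier results of these data known. Kept barcodes had 500 genes or more, 1000 UMIs or more and a mitochondrial share of 10% or less. A cell joined a class with at least 3 of its markers and a marker share above a limit per 10000 UMIs (20 for sebocytes, 40 for upper follicle and 100 for suprabasal keratinocytes), set after the marker distributions had been seen. An epithelial cell past several limits joined the class with the highest share relative to its limit. A cell past the sebocyte limit was never called basal. Cells passing gates of 2 lineages, 260 in skin and 148 in PG, were left out as possible doublets, and 656 and 420 cells had no class. Counts were summed per class and given as CPM, not divided by gene length, since the kit reads 3' ends, and levels of different genes are compared with that limit. Intervals (95%) leave out the variation between mice. A group without UMIs was set to 3. Members with at least 100 UMIs were described singly. Those with fewer were named where 1 class held at least 50% of their UMIs in a tissue, and any named beyond this were chosen after their values were seen. Free RNA was read from barcodes with at most 100 UMIs. GENCODE vM21 matched 32235 of 32285 gene identifiers. Python 3.11.15, numpy 2.4.6, scipy 1.17.1 and pandas 2.3.3 were used, with scanpy 1.11.5 and igraph 0.11.9 for the clustering alternative. The computations were tested on simulated data. Each tissue has 1 library, so no test between tissues was run.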

Additional observations from a re-analysis of the deposited data

Results flagged for a closer look

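A few members were past the fold in opposite directions in different classes, so that the tissue difference itself differed between classes. This difference between classes was not tested, since each tissue has 1 library. Cyp1b1 had a log2 ratio of PG over skin of 1.15 in fibroblasts and of -4.16 in sebocytes, -1.97 in basal keratinocytes and -4.43 in upper follicle keratinocytes. In upper follicle keratinocytes Cyp1b1, with 3 UMIs in PG and 47 in skin, reached the limit on UMIs through its skin count alone. Cyp3a13 had a log2 ratio of -2.59 in basal keratinocytes and 1.82 in upper follicle keratinocytes. Its counts were 6 UMIs in PG and 84 in skin in basal cells, and 29 and 6 in upper follicle cells. In each class Cyp3a13 reached that limit only through the tissue where it was higher. The part of the limit in its opposite directions was not tested.

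The barcodes removed for a mitochondrial share above 10% enter no comparison, and members were also counted in them. Cyp2b19 was at 62.8 CPM in the 662 removed PG barcodes against 20.1 CPM in the kept ones (log2 1.64, 1.31 to 1.96), and at 32.9 CPM in the 232 removed skin barcodes against 4.85 CPM, from 12 UMIs. Cyp4f39 was at 24.7 CPM in the removed skin barcodes against 10.8 CPM in the kept ones, from 9 UMIs. By the same rule, 1706 genes were past the fold upward in the removed skin barcodes and 245 in those of PG. A rise there is thus not particular to these members. Cyp2f2 went the other way in PG, at 435 CPM in removed and 628 CPM in kept barcodes. Sets of this kind could not be checked for single outlying samples, since no group has more than 1 library.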

How the results depend on the processing

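The levels rest on 1 library a tissue and on 41 skin sebocytes, so the sebocyte ratios for all members but Cyp2f2 stand on few skin UMIs. No paired analysis was possible because each group has 1 library and the labels give no replicate numbers. In sebocytes, the 3 members higher in PG became 1, Cyp2f2, at a mitochondrial limit of 5% and after thinning to 1000 UMIs. The 1 lower member became 2 when each cell was weighted alike (Cyp26b1 joined) and 0 after thinning, with cells that passed both gate and cluster and with at least 30 UMIs asked. In fibroblasts, 6 higher became 3 and 2 lower became 1 at 1000 genes and 2000 UMIs, where Cyp26b1 reversed to log2 0.44. A 4-fold limit left 1 and 1, and thinning and the limit of 30 UMIs left 1 lower. In keratinocytes, 7 higher became 4 and 11 lower became 6 at 4-fold. Chosen after seeing the data, basal cells alone gave 6 lower, with Cyp2b19 reversed to log2 0.48, and upper follicle cells alone gave 4, with Cyp2j6 reversed to log2 0.052. Between stages of PG sebocytes, the 1 higher member became 2 at the mitochondrial limit of 5%, with cells weighted alike and after thinning (Cyp2b19 joined), and 0 with 1 more marker, with Leiden clusters and at 4-fold. With clusters, 2 were lower, Cyp2b19 among them. The causes were not tested. Of the log2 ratios recomputed, 346 kept their direction and call, 65 kept their direction only and 3 reversed. Of the levels in the leading class, 174 stayed within their interval and 26 moved, among them Cyp2j9 in PG fibroblasts (5.39 CPM) and Cyp4f16 in PG macrophages and dendritic cells (15.8 CPM) at 1000 genes and 2000 UMIs, Cyp2s1 in PG basal keratinocytes with clusters (35.2 CPM) and Cyp26b1 in skin endothelial cells with cells weighted alike (41.1 CPM) and after thinning (23.5 CPM). Another 10 ratios gave no value. Both groups were at 0 for Cyp2e1 in fibroblasts at 1000 genes and 2000 UMIs, and for Cyp4f15 in keratinocytes with Leiden clusters and in basal cells alone. In the others 1 group was at 0 and its limit lay above the other level. The number of members ran from 31 to 35, and was 26 with at least 30 UMIs.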
